A study of Mus musculus with 19 samples.

Results

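The RNA levels of 9 tight junction genes were followed in small intestinal crypts of 19 mice. The members are the claudins Cldn2, Cldn3, Cldn4, Cldn7, Cldn15 and Cldn23, the membrane proteins occludin (Ocln) and tricellulin (Marveld2), and the scaffold protein ZO-1 (Tjp1). The list of symbols was matched to the Ensembl gene IDs of the deposited files, which hold 55487 genes. All 9 were found, and all 9 were among the 17875 genes with enough counts to be tested. Of the Nt+/+ mice, 5 were fed ad libitum and 5 were fasted for 48 hours with water only. Of the Nt-/- mice, 4 were fed and 5 were fasted in the same way. Nt codes for neurotensin (NT), a gut hormone of enteroendocrine cells, and Nt-/- mice lack the gene in every cell of the body. All mice were of the C57BL/6 strain, adult and of both sexes, and fed mice were littermates of matched sex and age that received standard chow. The study describes its fed and fasted mice of both genotypes as carrying an Lgr5-EGFP-IRES-CreERT2 allele, and the labels of these samples do not name it. Crypts, the pits of the mucosa that hold stem, progenitor and Paneth cells, were shaken from the proximal part of the small intestine with EDTA and were not sorted, so each library holds all cell types of the preparation. The questions were whether fasting changed the RNA of these junction genes, and whether loss of NT changed them or their response to fasting.

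Tight junctions close the gap between neighboring epithelial cells just below the apical surface. Claudins form the strands of the junction, and the claudins a cell uses decide which ions pass between cells: some, such as those coded by Cldn2 and Cldn15, form channels for small cations and, for Cldn2, water, while others mainly seal the gap. Occludin is part of the same strands, tricellulin sits at the corners where several cells meet, and ZO-1 ties the strands to the actin belt inside the cell. In the small intestine, sodium that returns to the lumen through claudin channels is used for the uptake of glucose and amino acids.

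Depth per mouse was 9059418 to 35068669 counts, and the members had between 106 (Cldn23) and 12164 (Cldn7) counts in a mouse. The knockout was checked by Nts, the mouse symbol of the Nt gene, which ranged from 4.98 to 8.59 counts per 1000000 counts of the library (CPM) in Nt+/+ mice and from 0.144 to 0.793 CPM in Nt-/- mice. One mouse titled as fasted Nt+/+ (replicate 5) has a genotype label of Nt-/-, and its Nts level was 5.43 CPM. It was kept in the group of its title, and results are given without it where they rest on it. The labels give 12 females, 6 males and 1 mouse without a sex. Markers fitted the tissue: the 6 stem cell markers summed to 1457 to 3478 CPM and the 6 Paneth cell markers to 17580 to 42360 CPM, against 2.27 to 8.04 CPM for 8 markers of stroma and endothelium. Enterocyte markers were also present, at a sum of 4113 to 20430 CPM over 10 genes, and goblet cell markers at 6741 to 14360 CPM over 6. Immune markers summed to 72.1 to 233 CPM over 7 genes, so immune RNA was present as well.

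On GRCm38, the channel-forming claudin genes Cldn15 (ENSMUSG00000001739) and Cldn2 lie at chr5:136966616-136975858 and chrX:139800828-139811386, both on the plus strand. The other claudins lie at chr5:134986214-134987472 (Cldn3, plus), chr5:134945119-134946934 (Cldn4, minus), chr11:69964779-69967885 (Cldn7, plus) and chr8:35824712-35826559 (Cldn23, minus). Ocln at chr13:100496507-100552718, Marveld2 at chr13:100595957-100616971 and Tjp1 at chr7:65296165-65527781 are on the minus strand. All 9 code for proteins, and reads were counted over their transcripts. Where annotated genes overlap a member, their counts were few: Wbscr25, antisense to 40 bases of Cldn3, had 183 counts over all mice beside 54082 for Cldn3.

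Sequence upstream of a gene is shown for 3 members: Cldn15, the one member called with fasting in both genotypes, and Cldn3 and Cldn7, the members that varied most closely with each other between mice of a group. The windows are RefSeq's for the mouse build GRCm38.p6 on the plus strand, end just before the annotated start, and are written 5′ to 3′. Capitals mark matches, on either strand, to 4 short motifs: TTTAT for CDX factors, AGATAA for GATA factors, CAAAGTC for HNF4 and GGGCGG for KLF and SP factors. The Cldn15 window, chr5:136967619-136967843, stops 25 bases short of the RefSeq start because an annotated exon begins there, and it lies 1003 bases inside the longest annotated form of the gene. The Cldn3 window is chr5:134985964-134986213 and the Cldn7 window is chr11:69964529-69964778.
Cldn15: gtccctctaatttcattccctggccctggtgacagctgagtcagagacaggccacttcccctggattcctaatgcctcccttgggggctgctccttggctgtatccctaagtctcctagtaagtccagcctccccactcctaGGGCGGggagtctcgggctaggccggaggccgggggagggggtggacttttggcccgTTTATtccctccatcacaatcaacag
Cldn3: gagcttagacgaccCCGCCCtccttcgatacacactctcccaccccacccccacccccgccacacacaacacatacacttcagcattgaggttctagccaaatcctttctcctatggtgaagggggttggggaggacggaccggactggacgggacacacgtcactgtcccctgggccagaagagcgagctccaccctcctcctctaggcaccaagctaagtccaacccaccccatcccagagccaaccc
Cldn7: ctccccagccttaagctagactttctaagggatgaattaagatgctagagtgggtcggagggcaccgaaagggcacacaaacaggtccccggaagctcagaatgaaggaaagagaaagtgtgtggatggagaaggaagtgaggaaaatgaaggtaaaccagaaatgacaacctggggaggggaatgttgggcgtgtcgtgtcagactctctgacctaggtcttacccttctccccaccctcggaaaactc
The Cldn15 window holds GGGCGG at 108 to 103 bases and TTTAT at 51 to 47 bases before the start. Cldn3 has a single match, GGGCGG on the other strand at 236 to 231 bases before the start, and the Cldn7 window shown has no match to any of the 4. RefSeq has another Cldn7 window, at chr11:69965171-69965420 and mostly within an annotated exon, with GGGCGG at 6 to 1 bases before its start. These motifs are common: over 250 bases, 32.7% of 32851 RefSeq windows hold GGGCGG and 37.3% hold TTTAT. No window of the 8 members with an entry holds the GATA or HNF4 motif, which occur in 9.99% and 3.84% of all windows. The matches are descriptions of the letters, not binding sites.

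Cldn7, coding for a claudin of the lateral membrane that is needed for an intact epithelium, was the most abundant member in all 4 groups. Levels of different genes were compared in TPM (transcripts per 1000000), which correct for transcript length. In ad libitum–fed Nt+/+ mice the median was 450.3 TPM (range, 422 to 462.5) for Cldn7 and 199 TPM (190.3 to 203) for Cldn15. The sealing claudin Cldn3 followed at 146 TPM (140.3 to 155). These ranges did not overlap, so the order of the 3 leading members held in each mouse of the group.

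Ocln had a median of 64.8 TPM, Cldn2 of 49.5 TPM and Tjp1 of 39.2 TPM in the same mice, and the ranges of neighbors in this order overlapped. Marveld2, Cldn4 and Cldn23 were lowest, at 17.4, 13.9 and 9.54 TPM. Marveld2 did not overlap with Tjp1 above it, while the ranges of Marveld2 and Cldn4, and of Cldn4 and Cldn23, did. The order was the same in ad libitum–fed Nt-/- mice, from 408 TPM for Cldn7 to 8.87 TPM for Cldn23. In fasted mice the ranges of Cldn15 and Cldn3 overlapped. Their medians were 146 and 140.4 TPM in Nt+/+ mice and 149.8 and 152 TPM in Nt-/- mice. Within single fasted mice, Cldn15 was still above Cldn3 in all but replicate 3 of Nt+/+ (149 against 165 TPM) and replicate 1 of Nt-/- (144 against 152.7 TPM).

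**Figure D1:**
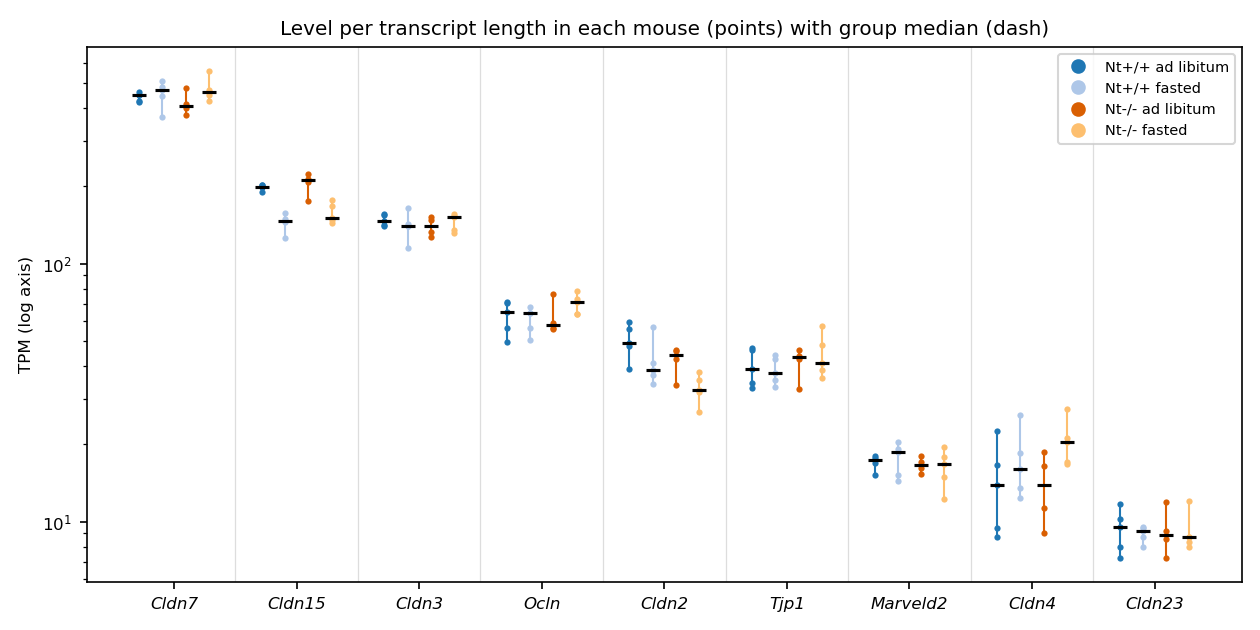
TPM of each member (x axis) in each mouse on a log axis, with 1 column of points per group (4 Nt-/- ad libitum–fed mice, 5 mice in the others), a vertical line for the range and a dash for the median. Cldn7 lies at or above 370.6 TPM in every mouse, Cldn23 lies at 7.22 to 12.0 TPM, and the fasted Cldn15 columns sit at the height of Cldn3.

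Fasting lowered Cldn15, the channel-forming claudin, by 25.2% in Nt+/+ and by 23.2% in Nt-/- mice, and it was the only 1 of the 9 members called in either genotype by edgeR with TMM scaling and no replicate block. With a block for the file number, which links mice of different groups, Cldn7 and Ocln were also called in Nt-/- mice, as they were by DESeq2. With that block 3 of 9 members were called, near the 31.7% of all genes. In Nt+/+ mice the levels were 329.7, 273, 331, 282 and 282 CPM when fed and 230.4, 220.4, 244, 208.5 and 218 CPM when fasted. Every fasted mouse was below every fed mouse, the highest fasted value being 244 CPM and the lowest fed value 273 CPM. The means were 299.6 ± 28.5 CPM (SD, n = 5) and 224 ± 13.4 CPM (SD, n = 5).

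The log2 fold change of Cldn15 in Nt+/+ mice was −0.42 (SE, 0.085; 95% interval, −0.60 to −0.24), with an adjusted p of 0.0016 by edgeR's quasi-likelihood test over all genes. Without the mouse whose labels disagree it was −0.41 (adjusted p, 0.00384), and with that mouse counted as Nt-/- it was −0.41 (adjusted p, 0.00376). In this comparison 21.6% of all genes tested were called at an adjusted p under 0.05, 11.2% higher and 10.4% lower, so 1 of 9 is not more than the share of all genes. Ranges of CPM lay apart, lower with fasting, for 1 of 9 members, against 6.97% of all genes.

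Nt-/- mice showed the same direction. Fed mice had 356, 321, 276 and 296.5 CPM of Cldn15, and fasted mice had 256, 237, 229, 210.4 and 267.5 CPM. The groups again did not overlap in CPM, though the lowest fed mouse (276 CPM) and the highest fasted mouse (267.5 CPM) were close. The means were 312 ± 34.2 CPM (SD, n = 4) and 239.9 ± 22.5 CPM (SD, n = 5), a log2 fold change of −0.38 (SE, 0.0897; 95% interval, −0.57 to −0.19) with an adjusted p of 0.0040 by edgeR.

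Of all genes, 25.2% were called in Nt-/- mice (12.5% higher and 12.6% lower), and 10.8% had lower, separate CPM ranges. In TPM, which also moves with the lengths of all other transcripts, Cldn15 stayed apart in Nt+/+ mice, where 11.4% of all genes were apart, and overlapped narrowly in Nt-/- mice (lowest fed, 174.7 TPM; highest fasted, 176 TPM), where 14.1% of all genes were apart. The call for Cldn15 was made in both genotypes with each of the 19 mice left out in turn. The numbers that link files of different groups gave 5 pairs of a fed and a fasted Nt+/+ mouse and 4 of Nt-/- mice, and the fasted mouse was lower in all of them, by 0.31 to 0.52 and by 0.15 to 0.48 on the log2 scale.

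**Figure D2:**
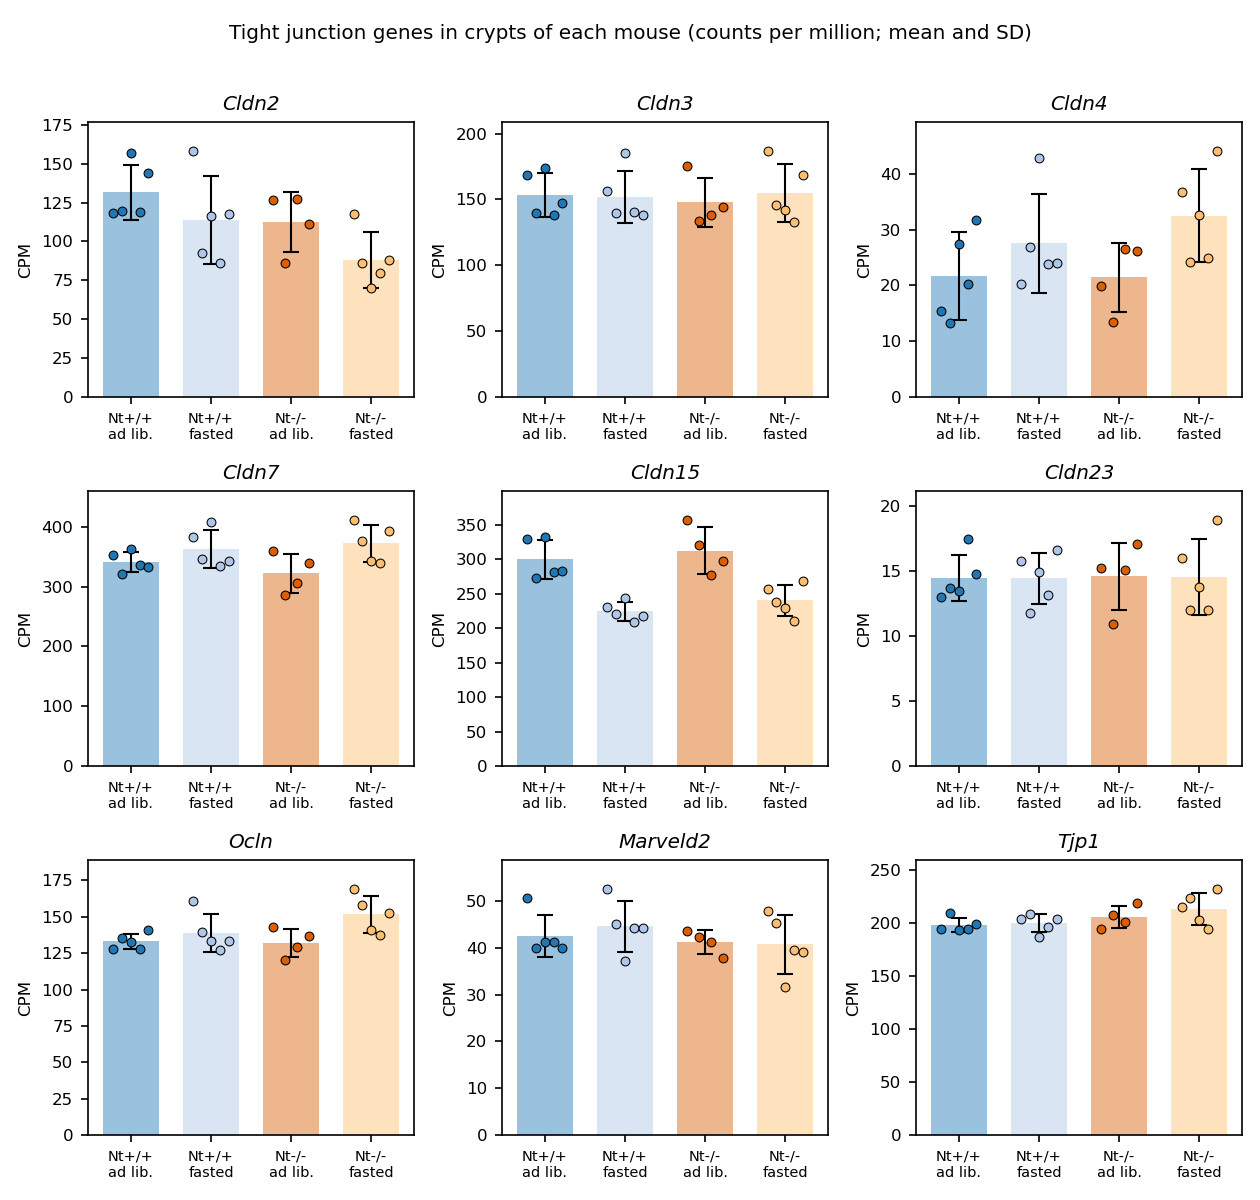
CPM (y axes, from 0) of the 9 members in each of the 19 mice (points), with bars for group means and error bars for the SD; blue groups are Nt+/+ and orange groups Nt-/-, darker when fed ad libitum and lighter when fasted. The Cldn15 points of fasted mice lie below those of fed mice of the same genotype, and in the other 8 panels fed and fasted points overlap.

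The make-up of the RNA of the 6 claudin members, which leaves out Cldn12, also differed between fed and fasted mice. As a share of the summed TPM of the 6 claudin members, Cldn15 made up 22.4% to 23.7% in fed and 16.5% to 18.7% in fasted Nt+/+ mice, and 23.1% to 27.6% in fed and 17.3% to 19.5% in fasted Nt-/- mice. Cldn7 held 50.2% to 52.2% in fed and 55.1% to 57.1% in fasted Nt+/+ mice, and 49.7% to 52.0% and 54.0% to 58.8% in Nt-/- mice. Both shares were separate between fed and fasted mice in each genotype, while the share of Cldn3 overlapped, from 16.1% to 18.3% over all mice. The summed TPM of the 6 claudins overlapped between all groups, with medians of 820.7 to 865 TPM. These shares are a description with no test, and a share within a mouse shows unequal change of the claudins and not which of them changed.

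**Figure D3:**
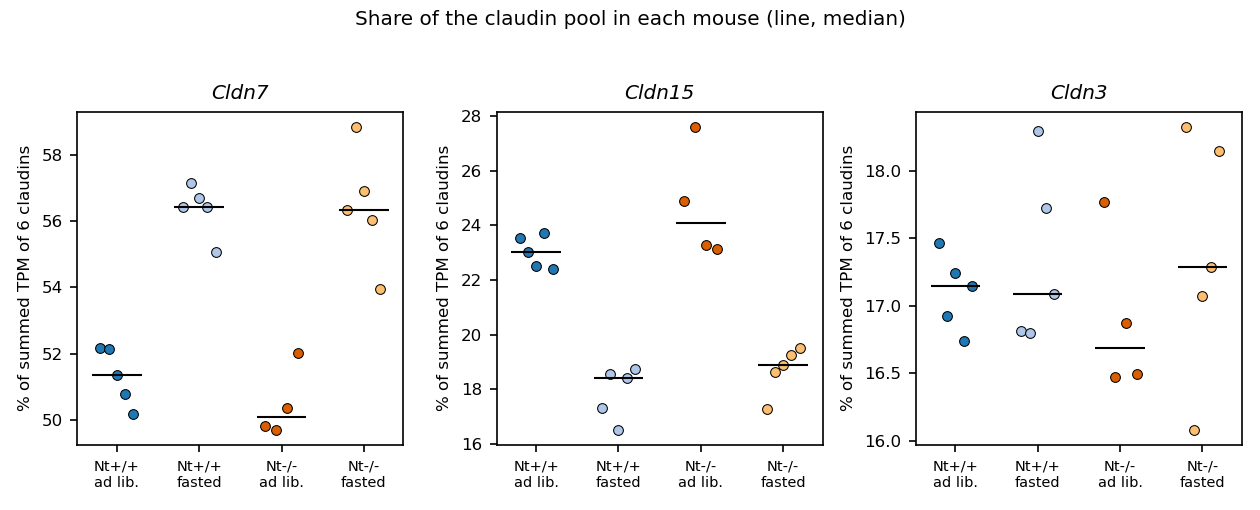
Percent of the summed TPM of the 6 claudins (y axes, which do not start at 0) taken by Cldn7, Cldn15 and Cldn3 in each mouse, with a line for each group's median. The Cldn7 points of fasted mice are at or above 54.0% and those of fed mice at or below 52.2%, the Cldn15 points run the other way, and the Cldn3 points overlap.

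Fasting also moved some cell type markers in the same mice. Of all genes, 11.2% in Nt+/+ and 12.5% in Nt-/- mice were called higher, and 10.4% and 12.6% lower. The 10 enterocyte markers were higher in 7 of 10 cases in Nt+/+ and in 10 of 10 in Nt-/- mice by the test, led by the fatty acid–binding protein Fabp1 (log2 fold change, 2.09 and 2.05). Their summed level was 4113 to 8558 CPM in fed and 8165 to 17090 CPM in fasted Nt+/+ mice, and 6262 to 9268 and 15000 to 20430 CPM in Nt-/- mice. Proliferation markers fell in 3 of 6 and 5 of 6 cases, from sums of 1514 to 1730 CPM to 984 to 1324 CPM in Nt+/+ and from 1456 to 1587 CPM to 866 to 1118 CPM in Nt-/- mice.

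Top2a, a topoisomerase of dividing cells, fell by 0.62 and 0.78 on the log2 scale in Nt+/+ and Nt-/- mice. Goblet cell markers fell in 2 of 6 and 3 of 6 cases (Agr2, −1.0 and −1.59; Clca1, −1.51 and −2.22; Muc2 in Nt-/- mice, −0.83), while Tff3 (0.13 and 0.030) and Fcgbp (0.17 and 0.16) were not called. Of the 6 stem cell markers, Olfm4 fell by 0.63 and 0.92 and Smoc2 fell by 0.49 in Nt-/- mice. The others were not called, among them Lgr5 (0.29 and −0.022), Ascl2 (0.63 and 0.12) and Axin2 (0.12 and −0.23). Paneth cell markers gave 0 and 1 of 6 called (Defa17 in Nt-/- mice, −0.72), and tuft cell markers 0 of 4 in each genotype. Enteroendocrine markers gave 1 of 6 in each (Chga, 0.39 and 0.42). Immune markers gave 0 and 1 of 7 (Gzma in Nt-/- mice, 0.965). The part of these markers in the lower Cldn15 was not tested. In RNA from whole crypts, fewer cells that express a gene and less RNA per cell cannot be told apart.

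Cldn2, the other channel former, which is a cation and water channel of crypt cells, was not called. Nt+/+ levels were 118, 119.5, 157, 119 and 144 CPM when fed and 158, 92.5, 116, 85.9 and 117.5 CPM when fasted. Nt-/- levels were 127, 86.05, 127 and 111 CPM when fed and 118, 85.9, 69.7, 79.5 and 87.9 CPM when fasted. Fed and fasted mice overlapped in both genotypes, with 1 fasted Nt+/+ mouse just above all fed mice. The log2 fold change was −0.21 (95% interval, −0.54 to 0.12) in Nt+/+ mice with an adjusted p of 0.39 by edgeR. In Nt-/- mice it was −0.35 (−0.70 to −0.0028), with an adjusted p of 0.134, and without replicate 1 of the fasted Nt-/- group it was −0.48 with an adjusted p of 0.0361. That was the 1 fit of 19 without single mice that called Cldn2, and the adjusted p by edgeR reached 0.299 in the others.

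Cldn4, a barrier claudin, varied most between mice. Its levels in Nt+/+ mice were 15.4, 13.3, 27.4, 20.25 and 31.8 CPM when fed and 20.3, 26.8, 42.9, 23.8 and 24.0 CPM when fasted. In Nt-/- mice they were 19.85, 13.4, 26.4 and 26.1 CPM when fed and 36.7, 24.2, 32.7, 25.0 and 44.0 CPM when fasted. Single mice of 1 group differed by more than the group means did. The log2 fold changes with fasting were 0.35 (−0.17 to 0.88) and 0.61 (0.049 to 1.17), with adjusted p of 0.346 and 0.105 by edgeR, so the 95% interval in Nt-/- mice lay above 0 while the adjusted p did not pass. In Nt+/+ mice the value was 0.14 without replicate 3 of the fasted group, the mouse at 42.9 CPM, and 0.54 without replicate 5 of the fed group.

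Cldn7 was not called in either genotype by edgeR with no block. The fed Nt+/+ values were 354, 320.4, 363, 337 and 333 CPM and the fasted ones 384, 346, 407, 334 and 343 CPM. The fed Nt-/- values were 359, 285, 306 and 339 CPM and the fasted ones 411, 376, 342, 340.1 and 393 CPM. The groups overlapped in both genotypes, and 3 of the 5 fasted Nt-/- mice were above all fed Nt-/- mice. The log2 fold changes were 0.088 (−0.080 to 0.26; adjusted p, 0.478 by edgeR) and 0.21 (0.030 to 0.39; adjusted p, 0.0812). Without replicate 1 of the ad libitum–fed Nt-/- group the latter was 0.26 with an adjusted p of 0.0462. That was the 1 fit of 19 without single mice that called Cldn7, and the adjusted p by edgeR reached 0.257 in the others. Paired by file number, the fasted Nt-/- mouse was higher in 4 of 4 pairs, by 0.15 to 0.40 on the log2 scale, and with that block the adjusted p was 0.0404.

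The sealing claudin Cldn3 and Cldn23, a claudin best known from differentiated surface cells, had similar means in all groups. Cldn3 means were 154 ± 16.8 CPM in fed and 152 ± 19.9 CPM in fasted Nt+/+ mice (SD, n = 5 each), and 148 ± 18.8 CPM (n = 4) and 155 ± 22.1 CPM (n = 5) in Nt-/- mice. The 95% intervals of its log2 fold change, −0.24 to 0.21 and −0.17 to 0.31, leave room for a change of up to 1.24-fold in ratio. Cldn23 had means of 14.5, 14.5, 14.6 and 14.6 CPM in fed Nt+/+, fasted Nt+/+, fed Nt-/- and fasted Nt-/- mice. It had 106 to 517 counts per mouse. Its intervals were wider than those of Cldn3, from −0.30 to 0.30 and from −0.31 to 0.32. Those of Cldn2, with 757 to 4299 counts per mouse, were wider still (SE, 0.158 and 0.168, against 0.142 and 0.15 for Cldn23).

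Occludin RNA was among the steadier ones. Ocln was at 128, 136, 133, 128 and 141 CPM in fed and 161, 139.8, 133.5, 127 and 133 CPM in fasted Nt+/+ mice. It was at 143, 120.2, 129 and 137 CPM in fed and 169, 158, 141, 137 and 152 CPM in fasted Nt-/- mice. Nt+/+ groups overlapped widely, and 3 of 5 fasted Nt-/- mice were above all fed Nt-/- mice. The log2 fold change was 0.063 (−0.089 to 0.22; adjusted p, 0.587 by edgeR) in Nt+/+ and 0.20 (0.035 to 0.36; adjusted p, 0.0685) in Nt-/- mice. In Nt-/- mice the adjusted p was 0.0436 without replicate 1 of the fasted Nt+/+ group and 0.0436 without replicate 4 of the fasted Nt-/- group, with log2 fold changes of 0.20 and 0.23. These were the 2 fits of 19 without single mice that called Ocln, and the adjusted p by edgeR reached 0.215 in the others. Paired by file number, the fasted Nt-/- mouse was higher in 4 of 4 pairs, by 0.091 to 0.40, with an adjusted p of 0.022 in the fit with that block.

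ZO-1 and tricellulin were not called. Tjp1 ranged from 193 to 209 CPM in fed and 186 to 209 CPM in fasted Nt+/+ mice, and from 194.7 to 219 and 194.4 to 232 CPM in Nt-/- mice. Its log2 fold changes were 0.012 (−0.11 to 0.14) and 0.056 (−0.078 to 0.19), the narrowest intervals of the 9 members. Marveld2 ranged from 40.0 to 50.6 CPM in fed and 37.2 to 52.5 CPM in fasted Nt+/+ mice, and from 37.8 to 43.6 and 31.7 to 47.8 CPM in Nt-/- mice, with log2 fold changes of 0.066 (−0.15 to 0.28) and −0.021 (−0.25 to 0.21).

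As a group, the 9 members had a median log2 fold change with fasting of 0.012 in Nt+/+ and 0.056 in Nt-/- mice, beside −0.0089 and −0.022 for all genes. By edgeR at an unadjusted p under 0.05 there was 1 member in Nt+/+ mice, against 34.1% of all genes, and 5 in Nt-/- mice (Cldn2, Cldn4, Cldn7, Cldn15 and Ocln), against 36.5% of all genes. The number in the file names marks mice of different groups that deviated together, and with it as a replicate block edgeR called 3 members in Nt-/- mice: Cldn15 (log2 fold change, −0.40; adjusted p, 0.000527), Ocln (0.21; adjusted p, 0.022) and Cldn7 (0.20; adjusted p, 0.0404). With that block 31.7% of all genes were called, so 3 of 9 is near the share of all genes. DESeq2 called the same 3 members. This count was not compared with its share of all genes, so it is not read as a result about the members.

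No member was called between Nt-/- and Nt+/+ mice in either diet. In ad libitum–fed mice the log2 fold changes of Nt-/- against Nt+/+ mice ran from −0.22 for Cldn2 (95% interval, −0.57 to 0.13) to 0.060 for Cldn15 (−0.13 to 0.25). The smallest unadjusted p of edgeR was 0.204, so 0 of 9 members were under 0.05, against 1.67% of all genes, and DESeq2 called 0 as well. One gene of all tested, Nts itself, had an adjusted p under 0.05, which is 0.00559%. No member had separate CPM ranges, against 0.694% of all genes.

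In fasted mice, Cldn2 was the member with the largest difference between genotypes. It averaged 114 ± 28.2 CPM in fasted Nt+/+ mice and 88.2 ± 18 CPM in fasted Nt-/- mice (SD, n = 5 each), and the values given above overlapped. The log2 fold change was −0.37 (SE, 0.160; 95% interval, −0.70 to −0.037), with an unadjusted p of 0.0314 and an adjusted p of 0.477 by edgeR. It was the 1 member of 9 under an unadjusted 0.05, against 9.14% of all genes. Called at an adjusted p under 0.05 were 0 members and, of all genes, again only Nts (0.00559%); DESeq2 also called 0 members. No member had separate ranges, against 1.56% of all genes. The other 8 members differed by −0.13 (Marveld2) to 0.24 (Cldn4) on the log2 scale. Cell type markers gave 0 calls by edgeR here, and DESeq2 called the enterocyte marker Sis. Fold changes lay above 0 for 10 of 10 enterocyte and 0 of 6 proliferation markers. At an unadjusted p under 0.05 by edgeR were 5 of each of these lists, 1 of 6 goblet cell markers and 0 of the other marker lists. The part of these markers in the Cldn2 difference was not tested.

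The effect of fasting was also compared between genotypes directly. By edgeR 0 of 9 members had an adjusted p under 0.05 for this difference (0.0% of all genes), and 0 of 9 had an unadjusted p under 0.05 (2.71% of all genes). For Cldn15 the difference in log2 fold change was 0.038 (95% interval, −0.22 to 0.30), so the fasted-to-fed ratio in Nt-/- mice was between 0.858 and 1.23 times that in Nt+/+ mice over the interval. For Cldn7 and Ocln, whose fold changes lay further from 0 in Nt-/- mice, the differences were 0.12 (−0.12 to 0.37) and 0.13 (−0.088 to 0.36). DESeq2 called 0 members.

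**Figure D4:**
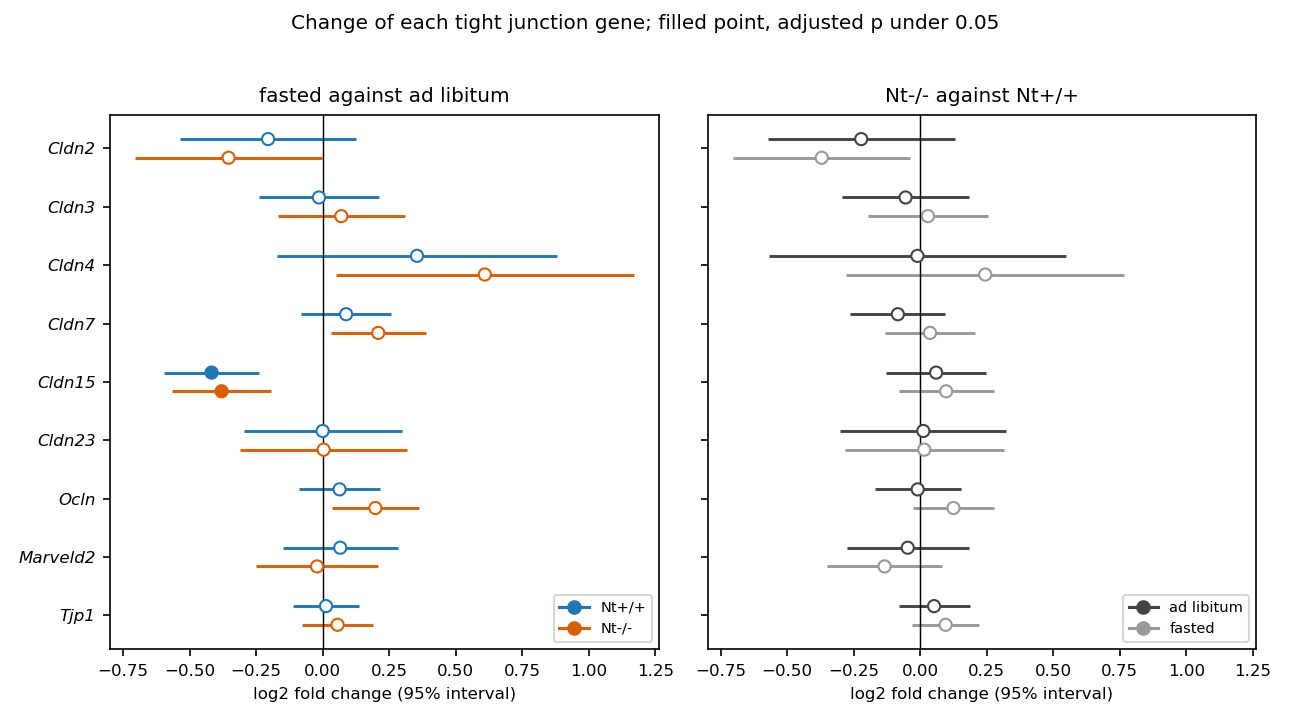
Log2 fold change of each member with its 95% interval (horizontal lines); left, fasted against ad libitum–fed mice in Nt+/+ (blue) and Nt-/- (orange) mice, and right, Nt-/- against Nt+/+ mice when fed (dark) and fasted (light). Filled points have an adjusted p under 0.05, and the only filled points are those of Cldn15 with fasting, at −0.42 and −0.38.

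The members differed in how much they varied between mice of a group. Tjp1 and Ocln had biological coefficients of variation of 7.75% and 8.93%, lower than those of all but 2.24% and 8.97% of genes. Cldn7 and Cldn15 followed at 9.90% and 10.3%, and Cldn4 was the most variable at 27.6%, above 78.4% of genes. In a fit with sex, Cldn4 was higher in males by 0.54 on the log2 scale (unadjusted p, 0.00302; adjusted p, 0.266 by edgeR), and Marveld2 was lower, at −0.22 (unadjusted p, 0.0052; adjusted p, 0.279). Neither was called, and 0.0789% of all genes were. The 2 fed Nt+/+ males had 27.4 and 31.8 CPM of Cldn4, above the 3 females at 13.3 to 20.25 CPM, while fed Nt-/- females reached 26.4 CPM, above the single male at 26.1 CPM. Males and females had different file numbers, so sex and whatever the number stands for cannot be told apart.

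Among themselves, Cldn3 and Cldn7 varied together most closely. After group means were removed, the Pearson r of their log2 CPM over 19 mice was 0.91, followed by 0.86 for Cldn3 with Cldn15 and 0.78 for Cldn2 with Ocln. Cldn4 and Marveld2 ran most opposite, at −0.44. Cldn7 and Cldn15 were at 0.73 within groups and at −0.18 over all mice, where the groups differ in Cldn15. The values share libraries and depth and are descriptions. Position did not order the members in the same way: Cldn4 and Cldn3, 39279 bases apart on chromosome 5, were at 0.45, and Ocln and Marveld2, 43238 bases apart on chromosome 13, at 0.47.

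For 8 of the members the gene most like each over the 19 mice was sought among 13054 well-expressed genes. For Cldn15 it was Ldha, coding for lactate dehydrogenase A (r, 0.95; 0.84 within groups). For Cldn3 it was Jup, coding for plakoglobin of desmosomes and adherens junctions (0.91), for Cldn7 Ctsz, a cathepsin (0.93; 0.90 within groups), and for Cldn2 Ifitm2, an interferon-induced membrane protein (0.90). Ocln was nearest to Foxo3, a forkhead factor (0.89), Cldn4 to 2010109I03Rik (0.95), Tjp1 to Dennd6a (0.85) and Marveld2 to Hmgxb3 (0.90). Each is the highest of many coefficients and carries no test.

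Beyond the members, most of the claudin family was nearly silent in crypts, and Cldn12 was the exception. Of the 28 other annotated genes with a claudin symbol, 12 had no count in any mouse and 13 had at most 70 counts over all mice together. By CPM, which do not correct for transcript length, Cldn12 was above Cldn4 and Cldn23 and near Marveld2, with group medians of 41.6 to 47.8 CPM. Cldn8 and Cldn20 were at 1.98 to 4.11 and 0.347 to 0.528 CPM. By edgeR and DESeq2 0 of these 3 were called with fasting. Cldn8 had a log2 fold change of 0.78 in Nt+/+ mice with an unadjusted p of 0.0325 (1 of 3) and an adjusted p of 0.109, and of 0.12 in Nt-/- mice, where 0 of 3 were under an unadjusted 0.05. Of all genes, 34.1% in Nt+/+ and 36.5% in Nt-/- mice were under an unadjusted 0.05 by edgeR.

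Other membrane proteins of the junction gave no call. Of 10 listed, among them the adhesion molecules F11r and Cxadr and the tricellular angulins Lsr and Ildr1, 9 were tested. In either genotype 0 were called by edgeR or DESeq2, against 21.6% and 25.2% of all genes by edgeR. Under an unadjusted p of 0.05 by edgeR were also 0, against 34.1% and 36.5% of all genes. Their log2 fold changes ran from −0.15 (Marveld3) to 0.27 in Nt+/+ and from −0.38 to 0.34 (Ildr1) in Nt-/- mice. The scaffold and polarity proteins had 17 of 19 genes tested, of which edgeR called 1 and 5 and DESeq2 called 2 and 6, against 21.6% and 25.2% of all genes by edgeR. In Nt+/+ mice the call by edgeR was Pard6b, a partner of atypical protein kinase C in cell polarity, which rose by 0.52 (adjusted p, 0.00145). In Nt-/- mice Pard6b (0.55), Amotl2 (0.88) and Magi3 (0.23) rose, and Cgnl1, coding for paracingulin (−0.53), and Ybx3, a ZO-1 partner also called ZONAB (−0.35), fell.

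Genes of the actin belt and of traffic to the junction gave 4 of 18 called in each genotype, near the 21.6% and 25.2% of all genes, and DESeq2 called 4 and 5. Ezr, coding for ezrin, which links actin to the apical membrane, rose most, from 389.8 ± 38.5 to 737 ± 227 CPM in Nt+/+ and from 407 ± 42.6 to 854 ± 99.0 CPM in Nt-/- mice (log2 fold changes, 0.92 and 1.07; adjusted p, 0.000439 and 0.00018). Cortactin (Cttn) rose in both (0.22 and 0.23). Cdc42 and Myl12a fell in Nt+/+ mice (−0.23 and −0.22), and in Nt-/- mice Vapa rose (0.29) and Myh9, a myosin heavy chain, fell (−0.32). The difference between genotypes in the effect of fasting was called for 0 of the 18 by edgeR and DESeq2. By edgeR 1 was at an unadjusted p under 0.05, against 2.71% of all genes.

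Of 16 adherens junction and desmosome genes of the neighboring junctions, 1 was called in each genotype, against 21.6% and 25.2% of all genes: the desmosomal cadherin Dsc2 fell from 244.5 ± 13.2 to 173 ± 21.8 CPM in Nt+/+ and from 233 ± 17.0 to 176 ± 17.3 CPM in Nt-/- mice, by 0.50 and 0.40 on the log2 scale (adjusted p, 0.000436 and 0.00316). Of 13 epithelial transcription factors, 5 were called in Nt+/+ mice, all higher (11.2% of all genes were called higher), and 8 in Nt-/- mice, 6 higher and 2 lower (12.5% and 12.6% of all genes). Gata6 (0.45 and 0.52), Hnf4g (0.74 and 0.77), Vdr (0.30 and 0.40) and Klf4 (0.46 and 0.60) were among those that rose in both, and Elf3 (−0.71) and Grhl2 (−0.39) fell in Nt-/- mice. In the comparisons of genotypes, 0 genes of these junction and transcription factor lists were called by edgeR or DESeq2. In fed mice 0 were under an unadjusted 0.05 by edgeR, against 1.67% of all genes. In fasted mice 2 of the scaffold list, 1 of the actin list and 1 of the transcription factors were, against 9.14%.

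**Figure D5:**
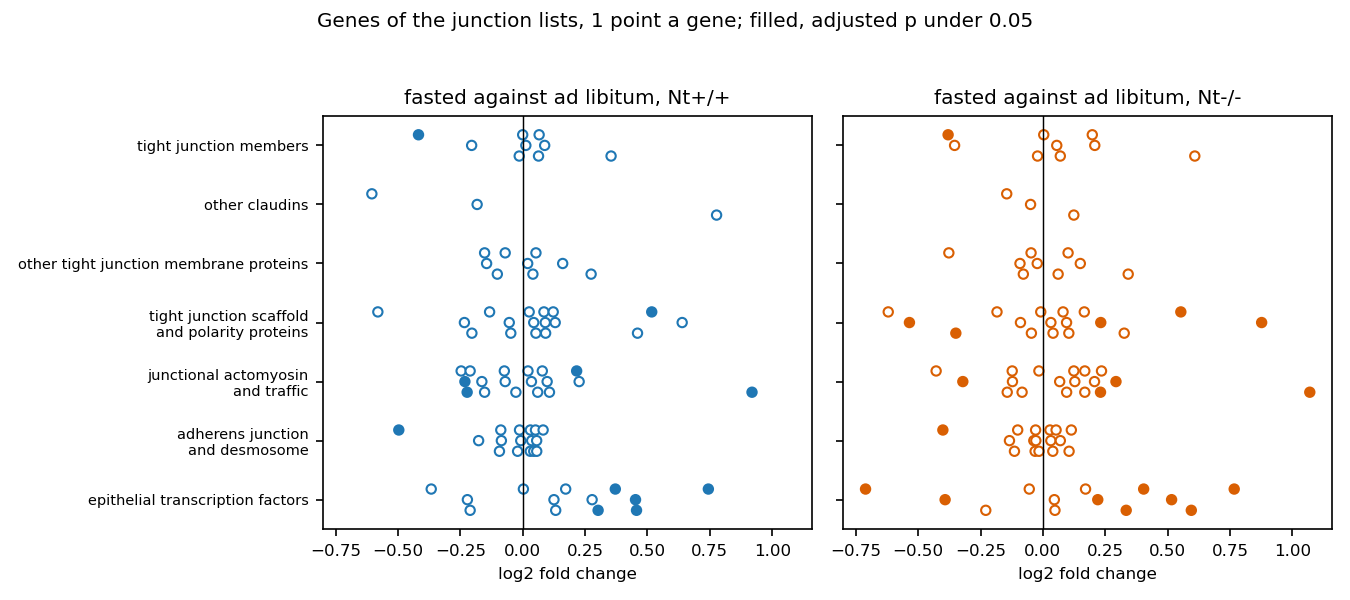
Log2 fold change with fasting (x axes) of every tested gene of the junction lists, 1 point a gene, in Nt+/+ (left) and Nt-/- (right) mice; filled points have an adjusted p under 0.05, and points are spread vertically only to be seen. Ezr is the filled point farthest to the right in both panels (0.92 and 1.07), and 1 filled point, Dsc2, stands in the adherens junction and desmosome row.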

How the data were processed

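The authors depleted ribosomal RNA, sequenced single-end reads of 100 bases, trimmed them with Trimmomatic 0.39 and assigned them to Ensembl transcripts of GRCm38 with RSEM, whose version and strand setting are not given in the sources used here. Deposited per gene and mouse are RSEM's expected count (not normalized; 13.1% of values are fractional, since reads that fit several genes are divided), TPM and, as another unit per the file headers, the effective length in bases. Groups are those of the sample titles. The members and lists were chosen with earlier results of these data known.

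Expected counts were rounded and scaled by TMM. The 17875 genes that passed filterByExpr were fitted in edgeR 4.0.16 (R 4.3.3) with 1 coefficient per group over all 19 mice, with no covariate and 15 residual degrees of freedom. The quasi-likelihood test was adjusted over all genes by Benjamini-Hochberg, and a gene is called at an adjusted p under 0.05. SE is the absolute log2 fold change over the square root of F. CPM use TMM library sizes, and r uses log2 CPM with a prior count of 2. On simulated counts for fasting in Nt+/+ mice (17588 genes), 95% of genes changed by 1 log2 unit and 50% of those changed by 0.5 were recovered. The simulation changed only 200 genes, all above a set level, and held no differences between file numbers. In the data 21.6% of genes were called in this comparison, so these rates may not hold for the data. Depth limits the precision of low genes. The p-values set differences between groups against the spread between mice, which in this fit includes any differences between file numbers.

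Besides the 9 members, the text names from each list the 3 genes with the smallest p in each genotype, the called genes of the junction lists and transcription factors, the most similar gene per member (mean of at least 1 log2 CPM) and Nts. For marker lists it gives mainly counts and sums. A few genes that this rule names are not reported here. Igsf5 and Myl12b have 2 gene IDs each, and the one with more counts was used. Promoter windows came from RefSeq for 8 members (not Cldn23), and no protein sequence was used.

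Title numbers pair mice in 2 comparisons, in which deviations from group means correlated across genes at r over 0.1 in 5 of 5 pairs (fasting in Nt+/+ mice; genotypes in fasted mice), and in 2 of 4 pairs in each of the other 2. With the number in the file names every pair was over 0.1 in all 4 comparisons (lowest r, 0.117). Neither number is explained in the sources used here. Alternatives were DESeq2 1.42.0, RLE and upper quartile scaling, no filter, at least 10 counts in every mouse, both numbers as a replicate block, sex as a covariate (without the 1 mouse that lacks it), only the groups compared, the mouse with disagreeing labels as Nt-/-, each mouse left out, and, for levels, CPM per kilobase of effective length. TPM ranges in place of CPM ranges were added after the values were seen.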

Additional observations from a re-analysis of the deposited data

Results flagged for a closer look

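Among 36 groups of values (9 members in 4 groups), 2 held a single mouse far from the others, where chance gives about 1 in 20. For Cldn4 it was replicate 3 of the fasted Nt+/+ mice, a male, at 42.91 CPM, with the next mouse of the group at 26.8 CPM and the lowest at 20.3 CPM. For Marveld2 it was replicate 1 of the ad libitum–fed Nt+/+ mice, at 50.61 CPM, with the next at 41.3 CPM and the lowest at 40.0 CPM. Neither gene was called with fasting with any single mouse left out, and the cause of the 2 values was not tested.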

How the results depend on the processing

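Cldn15 was called lower with fasting under each of 10 other settings and in all 19 fits without 1 mouse, in both genotypes (log2 fold change, −0.45 to −0.38 in Nt+/+ and −0.44 to −0.31 in Nt-/- mice across the latter). The count of members called in Nt-/- mice was 3 with upper quartile factors, with at least 10 counts in every mouse, with the replicate block by file set and with DESeq2 (Cldn7, Cldn15 and Ocln in each), 2 with the replicate block by title number (Ocln; adjusted p, 0.0473), and 1 to 2 without single mice. Of all genes, more were called in Nt-/- mice with upper quartile factors and with both blocks than as reported. Fewer were called with at least 10 counts in every mouse. Except for the block by file set, the member counts under these settings were not compared with the share of all genes. They are not read as a result about the members. Why Ocln and Cldn7 pass in these settings was not tested. The block by title changed no other call of a member. In Nt-/- mice the TPM ranges lay apart for 0 members. By CPM per kilobase 34 of 36 ranks were those by TPM.

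For all genes, calls between genotypes were 3 (fed) and 98 (fasted) with DESeq2, 0 in both with at least 10 counts in every mouse, 0 in both with the mouse with disagreeing labels as Nt-/-, and 1 to 4 in fasted mice without single mice (4 without replicate 1 of the fasted Nt-/- group). The cause was not tested, except that Nts did not pass the stricter filter.

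Signs turned only for log2 fold changes that were not called under the setting that turned them (smallest adjusted p, 0.646) or as reported. With sex as a covariate, Cldn15 was at −0.0048 for the difference between genotypes in the effect of fasting, and Cldn23 at −0.078 between fasted genotypes, −0.10 for the difference and −0.11 for fasting in Nt-/- mice. For Cldn23 the difference was −0.0025 with upper quartile factors, −0.0095 with no filter and −0.040 with the replicate block. Fasting in Nt-/- mice was −0.016 with no filter and −0.052 with the block for Cldn23, and between fed genotypes it was −0.017 with the block by file set. For fasting in Nt+/+ mice, Cldn23 was 0.0051 (RLE), 0.0047 (upper quartile), 0.0023 (only the groups compared) and 0.0054 (DESeq2). With the mouse with disagreeing labels as Nt-/-, Cldn3 was −0.029 between fasted genotypes and 0.018 for fasting in Nt+/+ mice, Cldn7 −0.0021 between fasted genotypes, and Marveld2 0.00019 for fasting in Nt-/- mice (0.022 with the block by file set). Between fed genotypes, Cldn4 was 0.0012 with no filter, 0.099 and 0.11 with the blocks by title and file set and 0.11 with sex, and Ocln was 0.00086 with no filter.

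Without single mice, fasting in Nt+/+ mice ran from −0.095 to 0.034 for Cldn3, −0.055 to 0.075 for Cldn23 and −0.0025 to 0.037 for Tjp1, and in Nt-/- mice from −0.0058 to 0.16 for Cldn3, −0.11 to 0.086 for Cldn23 and −0.089 to 0.059 for Marveld2. Between fed genotypes the ranges were −0.14 to 0.17 for Cldn4, −0.0087 to 0.12 for Cldn15, −0.071 to 0.13 for Cldn23, −0.048 to 0.034 for Ocln and −0.074 to 0.023 for Marveld2. Between fasted genotypes they were −0.046 to 0.11 for Cldn3, −0.00049 to 0.082 for Cldn7 and −0.098 to 0.075 for Cldn23, and for the difference −0.016 to 0.11 for Cldn15 and −0.11 to 0.088 for Cldn23.

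Changes smaller than a member's interval were not detectable at this depth and number of mice. Among the 9 members the intervals were widest for Cldn4, followed by Cldn2 and Cldn23.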
